A study of Mus musculus with 13 samples.

Results

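Milk protein genes are the output genes of the secretory mammary epithelium. The genes described here were the caseins Csn1s1, Csn2, Csn1s2a and Csn3, the whey proteins Wap and Lalba, and Elf5 and Prlr, a transcription factor and a receptor that govern milk secretion. They were chosen by name for that role, but with earlier results of these data known. Each was represented by the array feature carrying its symbol, the one with the highest mean where there were several. Of these 8 genes 7 were measured, out of 22206 features tested. Prlr, the prolactin receptor, was not analysed here because no feature was matched to it.

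The levels came from Clariom S mouse arrays of RNA pooled from 4T1 tumours. 4T1 is a mouse mammary carcinoma line of BALB/c origin. Cells of 1 of 3 lines had been injected into a mammary fat pad of BALB/c mice, either WT or Nlrx1-/-, which gave 6 groups of 2 arrays, 12 in all. The parental line was untransduced, 4T1OE was transduced to overexpress NLRX1, a NOD-like receptor found in mitochondria, and 4T1OE-CTL was its transduced control. The hosts' age and the number of tumours in a pool were not given in the sources used here, no group received a treatment, and the replicates were pools, so p-values measure the spread between these pools, which may be partly technical. Each line was injected into both hosts, and only the host differed in its Nlrx1 alleles. Overexpression cannot be told apart from other differences between the transduced lines, and in bulk tissue fewer cells of a type cannot be told apart from less RNA per cell. The label of the Nlrx1-/- parental replicate 1 array recommended its exclusion, so it is shown with the levels but was left out of every fit. The fits held 3 parental, 4 4T1OE-CTL and 4 4T1OE arrays, and the single remaining Nlrx1-/- parental array was taken to have the same spread as the rest.

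In the lactating gland, prolactin binds its receptor and activates the kinase JAK2, which phosphorylates STAT5. STAT5 then acts with the glucocorticoid receptor, nuclear factor I proteins and ELF5 at the casein, Wap and Lalba promoters. The caseins lie in 1 cluster of genes and make up the micelles that carry calcium phosphate, with kappa-casein, the product of Csn3, on their surface. Whey acidic protein and alpha-lactalbumin stay in the soluble phase, and alpha-lactalbumin is the regulatory subunit of lactose synthase. Tumour lines of mammary origin differ widely in how much of this programme they retain.

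All values were log2 expression values, and the reference for a signal was the median of the 5222 negative control features of the same array, which ran from 5.24 to 5.96. The standard deviation of all values within an array ran from 2.53 to 3.12. It was under 3 on 4 fitted arrays, namely WT parental replicate 1, WT 4T1OE-CTL replicate 1 and both Nlrx1-/- 4T1OE-CTL arrays. Lymph node markers were high on the Nlrx1-/- 4T1OE and 4T1OE-CTL replicate 1 arrays, with median deviations of 3.97 and 5.0 from each gene's median, and on the Nlrx1-/- parental array that was left out. Nlrx1 itself ran from 9.31 to 10.67 on the 4T1OE arrays and from 5.99 to 7.13 on the others, with no overlap. The luminal keratin genes Krt8 and Krt18 lay between 12.1 and 16.3 on all 12 arrays. Of 8 measured adipocyte genes, Adipoq, Plin1, Lep, Retn and Pck1 lay under the negative control median on every array. Another 2 of the 8 lay above it on every array.

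Of the 7 genes only Csn3 stood clearly above background, and it did so on the 4T1OE arrays. On the deposited values Csn3 was about 10.2-fold higher in 4T1OE tumours than in those of 4T1OE-CTL, where it lay within the negative controls' range. Wap was lower, but all its 4T1OE values lay under the negative control median. Both calls were lost when the arrays' standard deviation was a covariate. Csn1s1, Csn2, Csn1s2a, Lalba and Elf5 did not pass the test in any comparison. None of the 7 passed between hosts, between 4T1OE-CTL and parental tumours or between 4T1OE and parental tumours.

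**Figure D1:**
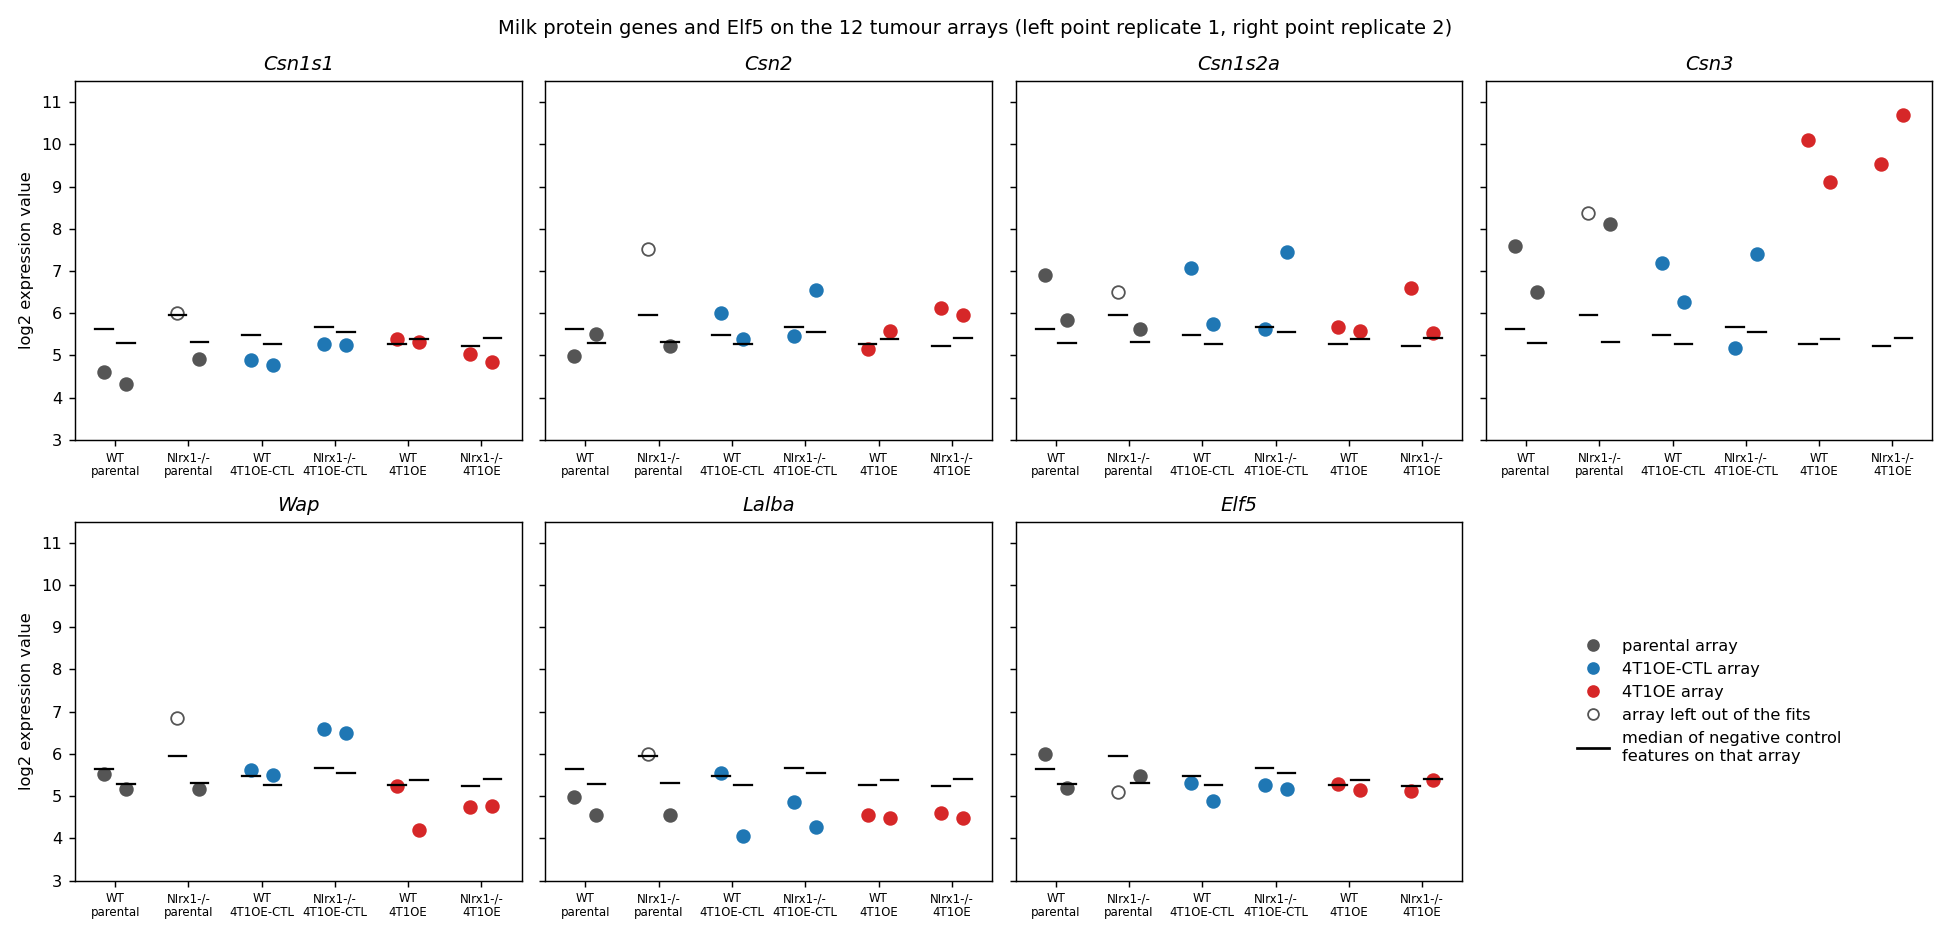
Log2 expression values of the 7 measured genes on the 12 tumour arrays, by group, with replicate 1 left and replicate 2 right; horizontal bars mark the negative control median of each array and the open circle is the array left out of the fits. Csn3 ran from 9.11 to 10.69 on the 4 4T1OE arrays, above every other array. The remaining genes lay at most 1.89 above the bars, a distance reached by Csn1s2a.

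Csn3 was described first because it is the casein that keeps micelles in solution and the one with the widest range. Its values were 10.11 and 9.11 on the WT 4T1OE arrays and 9.55 and 10.69 on the Nlrx1-/- 4T1OE arrays. In 4T1OE-CTL tumours they were 7.19 and 6.27 in WT hosts and 5.17 and 7.40 in Nlrx1-/- hosts. In parental tumours they were 7.60 and 6.50 in WT hosts and 8.11 on the fitted Nlrx1-/- array, beside 8.37 on the array left out. All 4 4T1OE arrays lay above the other 8, and the parental and 4T1OE-CTL arrays overlapped.

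Csn3 exceeded the negative control median on 11 of the 12 arrays, the exception being Nlrx1-/- 4T1OE-CTL replicate 1. On the 4T1OE arrays it exceeded 95.5% to 98.0% of the negative control features. On that exception it exceeded 38.8% of them, and on the other 7 arrays 71.9% to 92.3%. So the 4T1OE values were the ones that cleared nearly all of the negative controls, and those of the other lines lay inside their range.

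Averaged over the fitted arrays, Csn3 was 9.86 ± 0.685 (SD, n = 4) in 4T1OE, 6.51 ± 1.02 (SD, n = 4) in 4T1OE-CTL and 7.41 ± 0.824 (SD, n = 3) in parental tumours. The additive limma fit of host and line gave a difference of 3.36 between 4T1OE and 4T1OE-CTL (SE 0.510, adjusted p = 0.0107). Csn3 and Wap were the 2 of 7 genes called in this comparison, in which 4.73% of all features were called, 3.69% as higher and 1.04% as lower, and the median difference of all features was -0.05. An unadjusted p under 0.05 was reached here by 5363 of the 22206 features. The call held without each fitted array in turn, with adjusted p from 0.00690 to 0.0406. It was lost when the arrays' standard deviation entered as a covariate, where the difference was 4.05 (adjusted p = 0.147), and without the 4 arrays whose standard deviation was under 3, where it was 3.15 (adjusted p = 0.166).

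Against parental tumours, 4T1OE had 2.41 more Csn3 on the log2 scale (SE 0.556, adjusted p = 0.0622), with no overlap between the arrays but short of the threshold. Here 0 of the 7 genes were called by limma, 2 had an unadjusted p under 0.05, as did 3073 of all features, and 1.33% of all features were called. Without the Nlrx1-/- 4T1OE-CTL replicate 1 array, which enters the shared estimate of spread, Csn3 passed (difference 2.34, adjusted p = 0.0189). 4T1OE-CTL differed from parental tumours by -0.95 for Csn3 (SE 0.556, adjusted p = 0.456), and these arrays overlapped. In that comparison 0 of the 7 genes were called by limma, 1 had an unadjusted p under 0.05, as did 3532 of all features, and 2.59% of all features were called. The last 2 line comparisons share their parental arrays, and both 4T1OE comparisons share the 4T1OE arrays.

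Within WT hosts the Csn3 difference between 4T1OE and 4T1OE-CTL was 2.88 (SE 0.728, adjusted p = 0.313). In that comparison 0 of 7 genes were called by limma, 2 had an unadjusted p under 0.05, as did 1793 of all features, and 0.0135% of all features were called. Within Nlrx1-/- hosts the difference was 3.83 (SE 0.728, adjusted p = 0.0427), and 2 of 7 genes were called against 1.19% of all features. Its size rests on Nlrx1-/- 4T1OE-CTL replicate 1, where Csn3 lay under the negative control median: without that array the difference was 2.72 (adjusted p = 0.0489), and with the arrays' standard deviation as a covariate it was 5.96 (adjusted p = 0.193). The call was lost when any 1 of 7 other arrays was left out, namely any of the 4 4T1OE arrays, either WT 4T1OE-CTL array or Nlrx1-/- 4T1OE-CTL replicate 2, with differences of 3.26 to 4.95 and adjusted p from 0.0551 to 0.280. The difference between the hosts in the 4T1OE effect was 0.96 (SE 1.03, adjusted p = 0.999), so the size in the hosts was not shown to differ, and it turned to -0.15 without Nlrx1-/- 4T1OE-CTL replicate 1.

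Ordered by group mean over all 12 arrays, Csn3 ran from 10.12 in Nlrx1-/- 4T1OE through 9.61 in WT 4T1OE, 8.24 in Nlrx1-/- parental, 7.05 in WT parental and 6.73 in WT 4T1OE-CTL to 6.28 in Nlrx1-/- 4T1OE-CTL. The arrays of the first pair of neighbours overlapped, as did those of the last 3 groups. Nlrx1-/- parental lay between its neighbours without overlap, on 2 arrays a group, one of them the array left out of the fits.

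Wap encodes whey acidic protein, the main whey protein of rodent milk. Its values were 5.25 and 4.21 on the WT 4T1OE arrays and 4.75 and 4.78 on the Nlrx1-/- ones, all 4 under the negative control median. In 4T1OE-CTL tumours they were 5.63 and 5.50 in WT hosts and 6.58 and 6.49 in Nlrx1-/- hosts, above that median by 0.15 to 0.94. In parental tumours they were 5.52 and 5.17 in WT hosts and 5.16 on the fitted Nlrx1-/- array, with 6.84 on the array left out. The 4T1OE and 4T1OE-CTL arrays did not overlap, and on no array did Wap exceed more than 68.7% of the negative controls.

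The measured difference in Wap between 4T1OE and 4T1OE-CTL was -1.30 (SE 0.278, adjusted p = 0.0278), from means of 4.75 ± 0.425 and 6.05 ± 0.565 (SD, n = 4 each). Since all 4 4T1OE values lay under the negative control median, that difference has only a bound. On the deposited values Wap was at least 1.65-fold higher in 4T1OE-CTL (at least 0.72 on the log2 scale). The bound ran from the 4T1OE-CTL mean to the mean, over the 4T1OE arrays, of the negative control median. It makes no allowance for the 4T1OE-CTL arrays' own negative control medians, which ran from 5.27 to 5.68. Wap lay above those by only 0.15 to 0.94, so a true fold of that size was not shown. Within Nlrx1-/- hosts the measured difference was -1.77 (SE 0.342, adjusted p = 0.0441), and the same bound on the deposited values was at least 2.32-fold. Wap lay above the negative control medians of those 4T1OE-CTL arrays by only 0.91 and 0.94. A true fold of 2.32 was therefore not shown either. Within WT hosts the measured difference was -0.84 (SE 0.342, adjusted p = 0.584).

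The Wap call between the lines was lost without any 1 of 6 arrays, WT 4T1OE replicate 2, either Nlrx1-/- 4T1OE array, WT 4T1OE-CTL replicate 1 or either Nlrx1-/- 4T1OE-CTL array, with differences of -1.40 to -1.16 and adjusted p from 0.0597 to 0.100. Without the arrays rich in lymph node markers it was -1.13 (adjusted p = 0.143). When the spread of each array's values was a covariate it was -0.84 (adjusted p = 0.647). It was -0.77 with the arrays of low standard deviation left out (adjusted p = 0.609), and in the fit of all 12 arrays, where it was -1.30, its adjusted p was 0.144. Within Nlrx1-/- hosts the call was lost without any 1 of 8 arrays, the 4 4T1OE and the 4 4T1OE-CTL ones, with adjusted p from 0.0501 to 0.304. Against parental tumours, whose fitted values all lay under the negative control median, the measured Wap difference was -0.59 in 4T1OE (SE 0.302, adjusted p = 0.417) and 0.71 in 4T1OE-CTL (SE 0.302, adjusted p = 0.275). Neither passed.

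**Figure D2:**
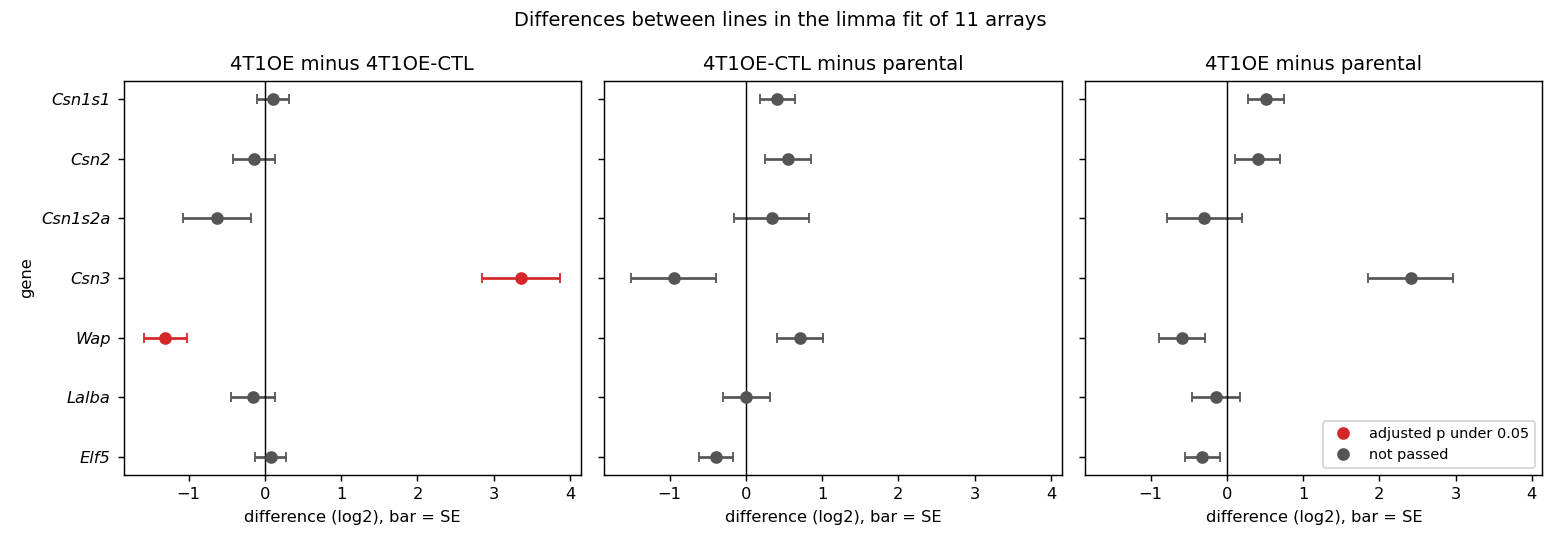
Differences between the lines in the limma fit of 11 arrays for the 7 genes, on the log2 scale with bars of 1 SE; red marks an adjusted p under 0.05. Csn3 at 3.36 and Wap at -1.30 passed in 4T1OE minus 4T1OE-CTL, and no gene passed in the other panels.

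Csn1s1 and Csn2 encode the alpha-S1 and beta caseins, whose promoters are classic targets of STAT5. The 250 bases before the start of each gene are shown with the letters TTCNNNGAA, the core of a STAT motif, in capitals where they occurred, because these are the windows of measured caseins that hold them. The sequences are from RefSeq on GRCm38.p6, at chr5:87665958-87666207 on the plus strand for Csn1s1 and chr5:87699426-87699675 on the minus strand for Csn2, each written 5′ to 3′ in the direction of the gene.
Csn1s1: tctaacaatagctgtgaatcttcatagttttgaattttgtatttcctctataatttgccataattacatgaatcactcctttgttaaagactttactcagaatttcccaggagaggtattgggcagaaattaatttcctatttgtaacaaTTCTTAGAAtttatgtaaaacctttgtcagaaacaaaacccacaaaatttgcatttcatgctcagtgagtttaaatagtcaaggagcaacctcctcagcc
Csn2: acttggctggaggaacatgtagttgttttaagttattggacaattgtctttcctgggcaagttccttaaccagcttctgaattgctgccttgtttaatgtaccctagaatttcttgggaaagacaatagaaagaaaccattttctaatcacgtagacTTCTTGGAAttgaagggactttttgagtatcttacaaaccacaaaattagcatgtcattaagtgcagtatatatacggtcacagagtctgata
The match in Csn1s1 began 100 bases before the start and that in Csn2 began 93 bases before it. The motif reads the same on both strands, and 7.02% of all 32851 windows of this length in the table held it. The windows listed for Elf5, Csn1s2a, Wap and Lalba held no match, which says only that these letters are not in those windows. Of the 3 windows listed for Prlr 1 held a match. The table used here gave no window for Csn3, so the motif was not looked for there.

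In the tumours, Csn1s1 ran from 4.32 to 6.01 and exceeded the negative control median on 2 of 12 arrays. It was 5.38 and 5.33 in WT 4T1OE tumours, 5.04 and 4.85 in Nlrx1-/- 4T1OE, 4.89 and 4.77 in WT 4T1OE-CTL, 5.27 and 5.24 in Nlrx1-/- 4T1OE-CTL, 4.61 and 4.32 in WT parental, and 6.01 and 4.92 in Nlrx1-/- parental tumours. The highest value was that of the array left out of the fits, and replicates of the same group lay closer together than for most features, with a within-group SD of 0.118 at percentile 2.00 of all features. The difference between 4T1OE and 4T1OE-CTL was 0.10 (SE 0.211, adjusted p = 0.791), and both lines overlapped.

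Csn2 ran from 4.98 to 7.52 and exceeded the negative control median on 8 of 12 arrays. It was 5.16 and 5.58 in WT 4T1OE tumours, 6.11 and 5.96 in Nlrx1-/- 4T1OE, 6.00 and 5.39 in WT 4T1OE-CTL, 5.46 and 6.54 in Nlrx1-/- 4T1OE-CTL, 4.98 and 5.52 in WT parental, and 7.52 and 5.21 in Nlrx1-/- parental tumours. The value of 7.52 was again that of the array left out. The 4T1OE and 4T1OE-CTL arrays overlapped, with a difference of -0.15 (SE 0.272, adjusted p = 0.772).

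Csn1s2a encodes a calcium-sensitive alpha-S2-like casein. It ran from 5.54 to 7.44 and exceeded the negative control median on 11 of 12 arrays. The higher values were 7.44 on Nlrx1-/- 4T1OE-CTL replicate 2, 7.08 on WT 4T1OE-CTL replicate 1, 6.92 on WT parental replicate 1, 6.60 on Nlrx1-/- 4T1OE replicate 1 and 6.51 on the Nlrx1-/- parental array left out. The other 7 arrays lay between 5.54 and 5.84, so in 5 of the 6 groups 1 array was high while its replicate was not. Its within-group SD was 0.859, at percentile 97.0 of all features, beside 0.964 at percentile 97.9 for Csn3 and a median of 0.337 over all features. The difference between 4T1OE and 4T1OE-CTL was -0.63 (SE 0.450, adjusted p = 0.409).

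Lalba and Elf5 lay at the level of the negative controls in every group. Lalba ran from 4.06 on WT 4T1OE-CTL replicate 2 to 5.99 on the array left out and exceeded the negative control median on 2 of 12 arrays, by at most 0.07. Its 4 4T1OE values were 4.55, 4.47, 4.61 and 4.47, inside the 4T1OE-CTL range of 4.06 to 5.55. The difference was -0.15 (SE 0.288, adjusted p = 0.771). Elf5, the alveolar regulator, ran from 4.89 to 5.99 and exceeded the median on 3 of 12 arrays, by at most 0.35. Its 4T1OE values ran from 5.12 to 5.38 and its 4T1OE-CTL values from 4.89 to 5.32, with a difference of 0.07 (SE 0.207, adjusted p = 0.849). Both genes lay within the range of the negative controls, which bounds their level and does not show that their RNA was absent.

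Host genotype gave no call among the 7 genes. The differences between Nlrx1-/- and WT hosts ran from -0.14 for Lalba to 0.35 for Csn2, with adjusted p of 1.00 throughout. By limma 0% of all features were called in that comparison, with 955 features and 0 of the 7 genes at an unadjusted p under 0.05. For the difference between hosts in the 4T1OE effect, 0% of features and 0 of 7 genes were called by limma, and 726 features had an unadjusted p under 0.05. Csn1s1 was among these, with 5.38 and 5.33 against 4.89 and 4.77 in WT hosts but 5.04 and 4.85 against 5.27 and 5.24 in Nlrx1-/- hosts (difference of differences -0.83, SE 0.351, adjusted p = 0.999). All but 1 of these 8 values lay under the negative control median.

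The casein genes are neighbours, so the protein-coding genes around Csn3 were listed in their RefSeq order after its values had been seen. These were Sult1b1, Sult1d1, Sult1e1, Csn1s1, Csn2, Csn1s2a, Csn1s2b, Prr27, Odam, BC037156, Csn3, Cabs1, Smr3a and Smr2, of which 13 of 14 were measured. Besides Csn3, 0 of them were called by limma between 4T1OE and 4T1OE-CTL, where 4.73% of all features were called. An unadjusted p under 0.05 was found for 2 (Odam and Sult1b1, both lower), beside 5363 of all 22206 features. The nearest measured genes on either side were Odam, an odontogenic ameloblast-associated protein gene, at -0.73 (adjusted p = 0.176), and Cabs1 at -0.29 (adjusted p = 0.483). Cabs1, Smr3a, Smr2 and Sult1e1 lay under the negative control median on all 12 arrays, and Csn1s2b exceeded it on 1 of them. Csn3 was the only one of the 13 to pass. Apart from Csn2 and Csn1s2a, the others exceeded the negative control median on at most 2 of 12 arrays, so a change in them could hardly be seen.

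**Figure D3:**
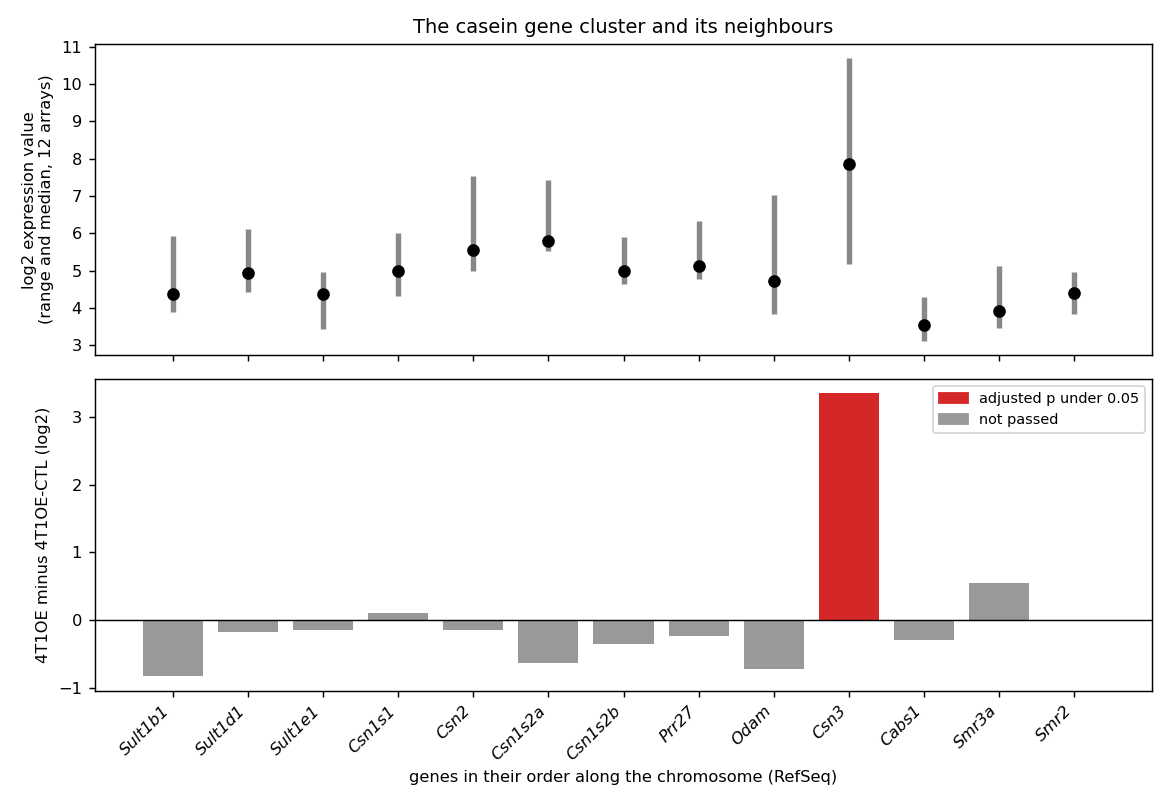
Range and median over 12 arrays (upper panel, log2) and the difference 4T1OE minus 4T1OE-CTL (lower panel, log2) for the 13 measured genes of the casein cluster and its flanks, in chromosomal order and not to scale. Csn3 reached 10.69 and differed by 3.36, and the other 12 bars lie between -0.83 and 0.55.

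Upstream of the milk genes, 25 of 26 listed genes of prolactin receptor and STAT5 signalling were measured, of which 15 exceeded the negative control median on all 12 arrays. Between 4T1OE and 4T1OE-CTL, 2 rose and 1 fell, where 3.69% of all features were called higher and 1.04% lower. An unadjusted p under 0.05 was found for 12 of the 25, beside 5363 of all 22206 features, and the median difference over the list was 0.38. The 2 that rose became 0 with all 12 arrays, quantile normalization, the replicate block, 1 mean per group in place of the additive fit, the standard deviation covariate, or without the arrays of low standard deviation or rich in lymph node markers, and 0 to 6 with single arrays left out. Jak2, the kinase bound to the prolactin receptor, was 11.79 and 12.55 in WT 4T1OE and 11.97 and 11.84 in Nlrx1-/- 4T1OE tumours, against 13.37 to 14.10 on the other fitted arrays except WT parental replicate 2 (12.89) and Nlrx1-/- parental replicate 2 (13.26). It was lower in 4T1OE than on every other array. Jak2 fell by 1.70 against 4T1OE-CTL (SE 0.264, adjusted p = 0.0115), a call kept without each fitted array in turn, and fell by 1.32 against parental tumours (SE 0.288, adjusted p = 0.0490). The first call was lost when the arrays' standard deviation was a covariate (-1.36, adjusted p = 0.370), with the 4 arrays of low standard deviation left out (-1.85, adjusted p = 0.176), without those rich in lymph node markers (-1.80, adjusted p = 0.0600) and with all 12 arrays (adjusted p = 0.0510). The second was lost without any 1 of 10 arrays, all but WT parental replicate 2, with adjusted p from 0.0560 to 0.160. It was also lost in 8 of the 12 other settings, which are listed with the processing below.

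The genes that rose were Ghr and Nfib. Ghr, the growth hormone receptor, which also signals through JAK2 and STAT5, was higher by 1.11 in 4T1OE (SE 0.264, adjusted p = 0.0384). Nfib, a nuclear factor I gene, was higher by 0.88 (SE 0.215, adjusted p = 0.0412) and was itself lower in 4T1OE-CTL than in the parental line, by -1.26 (SE 0.235, adjusted p = 0.0163). The Ghr and Nfib calls against 4T1OE-CTL were each lost without any 1 of 8 arrays, the 4 4T1OE arrays, WT parental replicate 2, WT 4T1OE-CTL replicate 1 and both Nlrx1-/- 4T1OE-CTL arrays, with adjusted p from 0.0527 to 0.128 for Ghr and from 0.0545 to 0.139 for Nfib. In the 12 other settings the calls against 4T1OE-CTL were lost in 7 for Ghr and in 8 for Nfib. The Nfib call against parental tumours was lost without Nlrx1-/- parental replicate 2 (-1.14, adjusted p = 0.148) and in 2 of the 12 other settings. Nr3c1, the glucocorticoid receptor, was higher by 1.49 in 4T1OE than in parental tumours (SE 0.286, adjusted p = 0.0283), a call lost without any of the 4 4T1OE arrays, WT parental replicate 1 or Nlrx1-/- parental replicate 2, with adjusted p from 0.0618 to 0.105. The Nr3c1 call was lost in 4 of the 12 other settings too. Without the arrays of standard deviation under 3, the differences from 4T1OE-CTL were 0.61 for Ghr (adjusted p = 0.607) and 0.37 for Nfib (adjusted p = 0.769).

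The genes of the transcription factors STAT5A and STAT5B gave no call. Stat5a ran from 8.51 to 9.56 and Stat5b from 6.61 to 7.42 over the 12 arrays, both above the negative control median on every one. Stat5a exceeded 88.7% to 97.1% of the negative control features of an array and Stat5b 61.9% to 88.3%, so Stat5b lay inside their range. Cish, a STAT5 target and feedback inhibitor, exceeded the negative control median on 2 of 12 arrays, and Socs2, another, ran from 8.21 to 9.70 without a call.

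**Figure D4:**
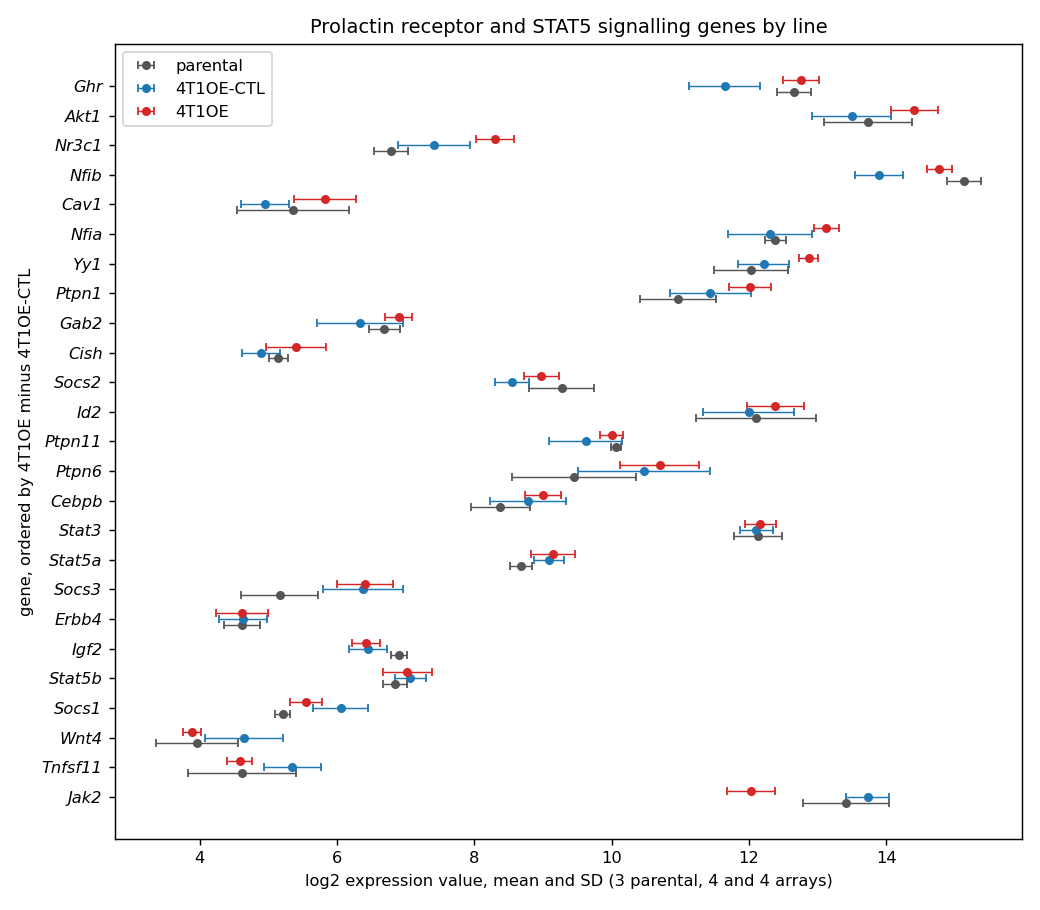
Mean and SD by line of the 25 measured prolactin receptor and STAT5 signalling genes (3 parental, 4 4T1OE-CTL and 4 4T1OE arrays), log2, ordered by the difference 4T1OE minus 4T1OE-CTL. Ghr is at the top with a difference of 1.11 and Jak2 at the bottom with -1.70.

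Of 25 other listed genes of the casein locus and of milk proteins, 22 were measured, and 10 lay under the negative control median on all 12 arrays. Between 4T1OE and 4T1OE-CTL Xdh passed, 1 of the 22, where 4.73% of all features were called. Xdh, xanthine dehydrogenase, a protein of the milk fat globule membrane, was lower by -1.39 in 4T1OE (SE 0.361, adjusted p = 0.0499) and higher by 2.82 in 4T1OE-CTL than in parental tumours (SE 0.393, adjusted p = 0.00322). The first of these calls was lost without any 1 of 8 arrays, the 4 4T1OE arrays, WT parental replicate 2, Nlrx1-/- parental replicate 2, WT 4T1OE-CTL replicate 1 and Nlrx1-/- 4T1OE-CTL replicate 2, with adjusted p from 0.0503 to 0.157, and the second was kept without each array in turn. Of the 12 other settings, 7 lost the first call and all kept the second. Trf, transferrin, was lower in 4T1OE-CTL than in the parental line, by -3.08 (SE 0.679, adjusted p = 0.0353), a call lost without any 1 of the same 8 arrays (adjusted p from 0.0504 to 0.278). The Trf call was also lost in 4 of the 12 other settings. Xdh and Trf were the 2 of 22 called between 4T1OE-CTL and parental tumours, where 2.59% of all features were called.

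Genes for the other components of milk gave few calls. Of 22 measured genes of milk lipid and lactose synthesis, 0 were called by limma between 4T1OE and 4T1OE-CTL, where 4.73% of all features were called. Of the 22, 5 had an unadjusted p under 0.05, beside 5363 of all 22206 features. Acly, ATP citrate lyase, was lower in 4T1OE-CTL than in the parental line, by -1.30 (adjusted p = 0.0336). It was 1 of the 22 called there, beside 2.59% of all features. The Acly call was kept without WT parental replicate 1 or WT 4T1OE-CTL replicate 2 and lost without any 1 of the other 9 fitted arrays, with adjusted p from 0.0501 to 0.272. It was lost in 4 of the 12 other settings as well. Of 10 transport genes, Slc12a2, a sodium, potassium and chloride cotransporter, was higher by 1.20 in 4T1OE than in 4T1OE-CTL tumours (adjusted p = 0.0157). In 4T1OE-CTL it differed from the parental line by -1.70 (adjusted p = 0.00282). It was the only 1 of the 10 called in either comparison, where 4.73% and 2.59% of all features were called. The first Slc12a2 call was lost without WT 4T1OE replicate 2, Nlrx1-/- 4T1OE replicate 1 or Nlrx1-/- 4T1OE replicate 2, with adjusted p from 0.0503 to 0.0664. It was also lost in 5 of the 12 other settings, whereas the second call was kept in all of them.

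Epithelial identity genes separated the transduced lines from the parental line, where Csn3 and Wap gave no call. Of 26 measured luminal and alveolar genes, 8 fell in 4T1OE-CTL against parental tumours, where 1.62% of all features were called lower, among them Epcam by -5.84, Cldn4 by -5.83 and Cldn7 by -3.67, the first an adhesion molecule and the others tight junction claudins. In 4T1OE against parental tumours 6 fell, where 0.441% of all features were called lower. Between 4T1OE and 4T1OE-CTL, 0 of the 26 were called by limma, where 4.73% of all features were called, and the median difference was 0.08. Of the 26, 10 had an unadjusted p under 0.05, beside 5363 of all 22206 features. The 8 became 4 without the arrays of standard deviation under 3 and 6 to 10 with single arrays left out, and the 6 became 5 to 6. Within Nlrx1-/- hosts Csn3, Wap and 1.19% of all features were called. There Cdh1 at 3.08 (adjusted p = 0.0227), Krt18 at 2.10 (adjusted p = 0.0410) and Tfap2a at 1.67 (adjusted p = 0.0343) were higher in 4T1OE. Each of these calls was lost without any of the 4 4T1OE arrays or Nlrx1-/- 4T1OE-CTL replicate 2, and that of Krt18 also without either WT 4T1OE-CTL array, with adjusted p from 0.0505 to 0.293. Of the 11 other settings run within these hosts, 4 lost the Cdh1 call and 5 each lost those of Krt18 and Tfap2a. Among 12 basal genes, Trp63 was lower by -1.30 in 4T1OE than in 4T1OE-CTL (adjusted p = 0.0434), and Acta2 by -1.82 in 4T1OE-CTL than in parental tumours (adjusted p = 0.0174). Each was the only 1 of the 12 called in its comparison, beside 4.73% and 2.59% of all features. The Trp63 call was lost without any of the 4 4T1OE arrays, WT parental replicate 2, WT 4T1OE-CTL replicate 1 or Nlrx1-/- 4T1OE-CTL replicate 2 (adjusted p from 0.0507 to 0.131). The Acta2 call was lost without WT parental replicate 2 or Nlrx1-/- parental replicate 2 (adjusted p from 0.0668 to 0.135). In the 12 other settings the Trp63 call was lost in 8 and the Acta2 call in 2.

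Macrophage markers shared with Csn3 the direction of the step from 4T1OE-CTL to 4T1OE. Whether they followed Csn3 from array to array within a line was not tested. On the 4T1OE-CTL arrays Csn3 was 7.19, 6.27, 5.17 and 7.40. The median deviation of the macrophage list on these arrays was -1.90, -0.21, -0.97 and -1.59, in the same order. Of 9 markers 6 rose in 4T1OE against 4T1OE-CTL, where 3.69% of all features were called higher, with a median difference of 1.98, and the median deviation of the list was 0.46 to 0.82 on the 4T1OE arrays, -1.90 to -0.21 on the 4T1OE-CTL arrays and -1.05 to 0.01 on the parental arrays. The count was 0 with the arrays' standard deviation as a covariate or without the arrays rich in lymph node markers, 1 with all 12 arrays or without the arrays of standard deviation under 3, and 3 with quantile normalization. It was 1 to 8 with single arrays left out, with 1 without WT 4T1OE replicate 2 or Nlrx1-/- 4T1OE replicate 1, 3 without WT 4T1OE replicate 1, Nlrx1-/- 4T1OE replicate 2, WT 4T1OE-CTL replicate 1 or either Nlrx1-/- 4T1OE-CTL array, and 8 without WT 4T1OE-CTL replicate 2. The standard deviation was higher in 4T1OE too, at 3.09 to 3.12 against 2.78 to 3.07 in 4T1OE-CTL and 2.89 to 3.07 on the fitted parental arrays. The part of either in the Csn3 and Wap results was not tested beyond the fits with the standard deviation given above. Adipocyte, lymph node, skeletal muscle and skin keratinocyte markers gave 0 calls by limma in the 3 line comparisons. Between 4T1OE and 4T1OE-CTL 1 of these markers, a keratinocyte one, had an unadjusted p under 0.05. Lymph node markers averaged 4.61 to 8.96 over the list in 4T1OE and 4.73 to 9.69 in 4T1OE-CTL, so both lines held 1 array rich in them. Skeletal muscle markers averaged 5.24 to 12.62 in 4T1OE, 6.17 to 10.55 in 4T1OE-CTL and 5.42 to 5.65 on the fitted parental arrays. Their median difference was -1.25 between 4T1OE and 4T1OE-CTL and 3.94 between 4T1OE-CTL and parental tumours. So the pools differed in muscle despite the lack of calls, and any part of this in the Csn3 and Wap results was not tested.

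Among 9951 features with a gene symbol and a mean above the median feature, those whose values over the 11 fitted arrays were most like Csn3 were Tspan15 (Pearson r = 0.942), Ppp2r5d (0.918), Nars (0.916), Dbt (0.915) and Tmx3 (0.904). For Wap they were Lsm3 (r = 0.965), St13 (0.957), Pnrc2 (0.930), Chmp6 (0.928) and Mrgprb3 (0.925). For Csn1s2a the highest was Gm10413 (r = 0.898) and for Csn2 Spata5l1 (r = 0.879). These are the highest of many values over 11 arrays that share their lines and scaling. Tspan15, Ppp2r5d, Dbt and Tmx3 were called higher in 4T1OE than in 4T1OE-CTL, by 1.11, 1.19, 1.29 and 0.74, and Lsm3 and St13 were called lower, by -0.93 and -0.95.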

How the data were processed

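The deposited table gave 1 log2 expression value per feature and array, which the authors had normalized. Per the submitters' processing notes they used the Transcriptome Analysis Console, and the background method, normalization and genome build were not given in the sources used here. Of 28846 features, 6640 controls were removed and 22206 were tested, 19572 with 1 gene symbol in the platform annotation. Values were used as deposited. The number of arrays limits the precision.

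Two-sided moderated tests on 11 arrays used limma 3.58.1 under R 4.3.3, with lmFit and eBayes, as host plus line or as 1 mean per group, with Benjamini-Hochberg adjustment over all features and a threshold of 0.05. The additive fit was tried on simulated data with independent noise on each array and a known difference in some features. These data had no differences between arrays in spread or tissue content, so the trial does not bear on those. A gene under the negative control median on every array of 1 side was given a bound. The text names all measured members, up to 6 called genes per list and the 5 features most correlated with a member. The members and lists were chosen with earlier results of these data known. The alternatives were all 12 arrays, quantile normalization, a filter on the dimmest 33.3% of features, a variance trend on intensity, array weights, an unadjusted p under 0.05 with a fold of 2, the replicate block, the array standard deviation as a covariate or a filter at 3, leaving out arrays with a lymph node deviation above 1, other models, each array left out and, added after seeing the data, subtraction of the negative control median. The column of the control array supplied by the manufacturer was empty.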

Additional observations from a re-analysis of the deposited data

Results flagged for a closer look

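Csn1s2a on the Nlrx1-/- 4T1OE replicate 1 array was 6.60, whereas the other 3 4T1OE arrays lay between 5.54 and 5.66. Its gap to the nearest of them was 0.880 of the range of the 4 values, above Dixon's critical value for 4 arrays. Of 21 sets of 4 arrays examined this was the only one, and chance gives such a gap in about 1 of 20. That array was also 1 of the 2 fitted arrays with high lymph node markers, and any part of these in the value was not tested.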

How the results depend on the processing

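Between 4T1OE and 4T1OE-CTL the 2 called genes became 1 with all 12 arrays or without the arrays rich in lymph node markers and 0 when the arrays' standard deviation was a covariate or without the arrays of standard deviation under 3, and 1 to 2 with single arrays left out. Within Nlrx1-/- hosts the 2 became 0 with all 12 arrays, quantile normalization, the replicate block, the standard deviation covariate or without the lymph node rich arrays, 1 with array weights or after subtraction of the negative control median, and 0 to 2 with single arrays left out. Leaving out the arrays of low standard deviation could not be fitted there, since both Nlrx1-/- 4T1OE-CTL arrays were among them. Between 4T1OE and parental tumours the count of 0 became 1, which was Csn3, with the dim features left out, array weights, the unadjusted p and fold rule, or without the arrays of low standard deviation or rich in lymph node markers, and 0 to 1 with single arrays left out. Within WT hosts it became 1 with the unadjusted p and fold rule and stayed 0 with single arrays left out. The other 3 comparisons gave 0 in every setting. The Csn3 difference between hosts in the 4T1OE effect was 0.96 and ran from -0.15, without Nlrx1-/- 4T1OE-CTL replicate 1, to 2.07, without replicate 2 of that group. The Csn3 and Wap differences between the lines kept their direction in all settings run. With the replicate block, 2 genes were called between 4T1OE and 4T1OE-CTL, as without it, but the Csn3 and Wap calls within Nlrx1-/- hosts were lost (adjusted p = 0.0651 and 0.0572). The labels do not say that a replicate number marks a shared animal or day, so the numbers were not taken to pair the samples. Of 10 pairs of groups 2 had same-numbered deviations correlated above 0.1 (r from -0.309 to 0.371). Both lay within 1 host, Nlrx1-/- 4T1OE with 4T1OE-CTL (0.371) and WT 4T1OE-CTL with parental (0.363). The other pairs within a host, WT 4T1OE with WT 4T1OE-CTL and with WT parental, gave -0.053 and -0.117. High lymph node markers lay on replicate 1 of every Nlrx1-/- group. A link between same-numbered pools of 1 host was thus not excluded. The count over all features between these lines ran from 70 to 2663 with single arrays left out and from 4 to 2140 in other settings. Signal over background limits what can be said of Csn1s1, Csn2, Csn1s2a, Lalba and Elf5.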

Other observations

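Glycam1, a mucin-like glycoprotein of milk that is also made by the high endothelial venules of lymph nodes, was looked at after its values had been seen. It was 12.75 on Nlrx1-/- 4T1OE replicate 1, 12.93 on Nlrx1-/- 4T1OE-CTL replicate 1 and 13.16 on the Nlrx1-/- parental replicate 1 array left out of the fits. On the other 9 arrays it ran from 3.71 to 5.55. The 3 high arrays were the 3 with high lymph node markers, with median deviations of 3.97, 5.0 and 3.49. Csn3 on the same 3 arrays was 9.55, 5.17 and 8.37, so it was high on 1 of them, intermediate on 1 and at the lowest value of all on 1.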
